A study of Sus scrofa with 36 samples.

Results

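The comparison described here asks how the response of the pig heart to infarction changed between 1 day and 1 week (7 days) after coronary ligation, when the injury was made at 14 days of age. For each gene, the difference between the infarct zone (IZ) and sham heart at 1 week (the Late response) was set against the same difference at 1 day (the Early response). Late minus Early is therefore positive when the IZ stood further above sham, or less far below it, at 1 week. It rests on 12 of the 36 libraries of the series, 3 in each of 4 groups: Old Early Sham, Old Early IZ, Old Late Sham and Old Late IZ. All of these pigs were Yorkshire-landrace animals operated on at 14 days of age (the groups called Old), and each of the 12 libraries came from another pig. In the IZ groups, branches of the left anterior descending and left circumflex coronary arteries had been tied off permanently. The labels describe sham surgery no further. Infarcted and sham pigs alike received the analgesic ketoprofen and the antibiotic enrofloxacin after surgery. Hearts were taken at 15 days of age (Early) or 21 days (Late), so time after injury and age of the pig move together. Sham hearts were also taken 1 day or 7 days after surgery, so the sham groups carry the change with age together with time since sham surgery. Messenger RNA was sequenced from the IZ, or from the anterior wall of the left ventricle in shams.

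An infarct heals in overlapping phases. Neutrophils and then monocytes and macrophages clear dead muscle, fibroblasts are recruited and lay down a matrix that is first loose and later rich in crosslinked fibrillar collagen, and new vessels grow into the granulation tissue and are then pruned. Cardiomyocytes of the newborn pig can still divide, and this capacity is largely lost soon after birth.

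Total counts ran from 18635109 to 28488330 per library, with TMM scaling factors of 0.754 to 1.01 in Old Early Sham and 1.41 to 1.66 in Old Late IZ. RNA integrity numbers were 7.1 to 7.6 in Old Early Sham, 6.3 to 7.3 in Old Early IZ, 7.8 to 8.4 in Old Late Sham and 7.1 to 7.6 in Old Late IZ. Mitochondrially encoded genes took 27.3% to 43.6%, 18.5% to 30.0%, 22.6% to 23.8% and 9.7% to 11% of counts in the same order. MYH6, which encodes a cardiac myosin heavy chain and marks heart muscle, was counted at 9553 CPM or more in each of the 12 libraries, where CPM is the count scaled to library size with TMM factors. All Old Early libraries were prepared in batch 2 and all Old Late libraries in batch 3. A shift that batch adds to IZ and sham alike drops out of the comparison, whereas a response that differed by batch cannot be told apart from time. With the RNA integrity number as a covariate 659 genes were called, 624 of them the same ones, and 680 without the mitochondrially encoded genes. The labels do not say that the pigs came from separate litters, and the p-values measure the spread between these 12 pigs and the other libraries of the fit.

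Of 14537 genes tested, 659 differed between the Late and the Early response, which is 4.53%. Among them 428 were higher Late (2.94%) and 231 lower Late (1.59%). Each value is a log2 difference ± its standard error (SE), from an edgeR quasi-likelihood model and 3 libraries per group, and a gene is called when its Benjamini-Hochberg adjusted p is under 0.05. In all, 2520 genes had an unadjusted p under 0.05. In the Early comparison alone 4988 genes (34.3%) differed between IZ and sham, 19.5% higher and 14.8% lower. In the Late comparison 7137 (49.1%) differed, 25.1% higher and 24% lower. The median difference over all tested genes was -0.08, with a median SE of 0.44. The number of calls depended on single libraries: it was 270 when Old Early Sham replicate 3 was left out, 422 and 430 when replicate 3 or 1 of Old Late Sham was, and 438 when Old Late IZ lost its replicate 3.

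The 659 genes fell into a few patterns, seen in the plot of Early against Late responses. Of the 428 higher ones, 259 (60.5%) were not called Early and stood above sham Late. Another 118 (27.6%) stood above sham at both times and further above it Late, 29 (6.78%) stood below sham Early and were not called Late, and 22 (5.14%) crossed from below sham to above it. Of the 231 lower ones, 96 (41.6%) were not called Early and lay below sham Late, and 74 (32%) stood above sham Early and were not called Late. A further 34 (14.7%) lay below sham at both times, 21 (9.09%) crossed from above to below, and 6 (2.6%) stood above sham at both times.

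**Figure D1:**
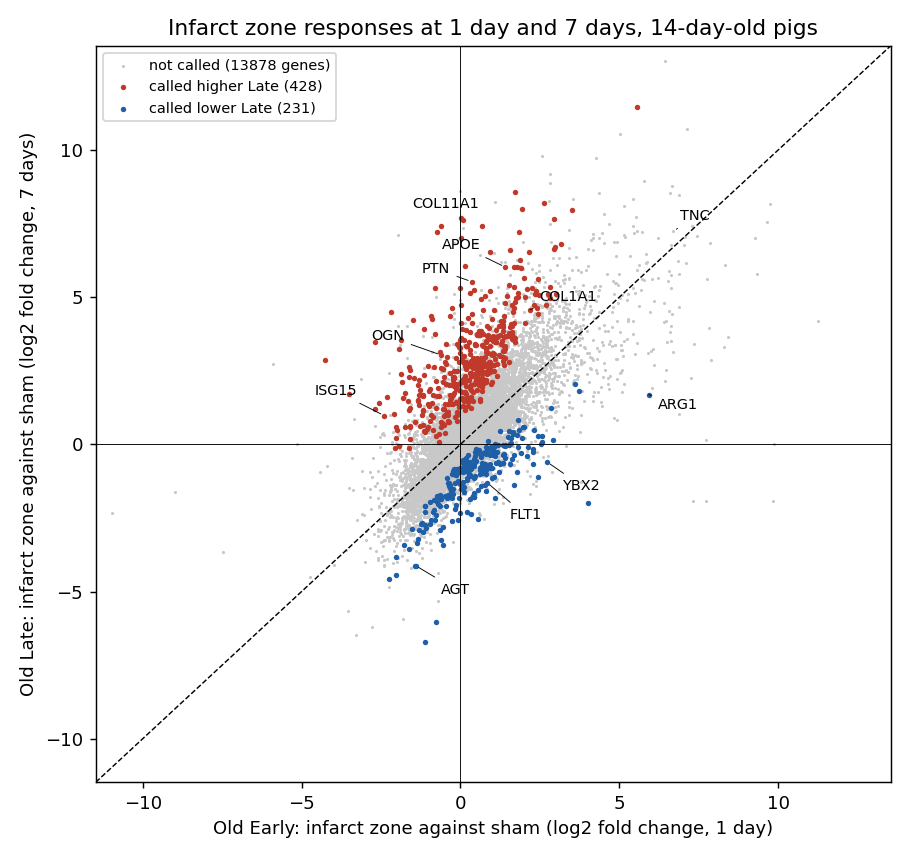
Each point is 1 of 14537 tested genes, placed by its log2 fold change between infarct zone and sham at 1 day (horizontal axis) and at 7 days (vertical axis); the dashed line marks equal responses. Called genes lie away from the line, the 428 higher ones above it and the 231 lower ones below it, while TNC, high at both times, lies near it.

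The IZ libraries separated for most called genes, and the sham libraries for a part of them. For 404 of the 428 higher genes (94.4%), all 3 Old Late IZ libraries exceeded all 3 Old Early IZ libraries, and for 207 of the 231 lower genes (89.6%) all 3 lay below. Over all tested genes 29.2% had IZ groups that did not overlap. The sham groups did not overlap for 33.9% of the higher genes and 51.5% of the lower ones, against 29.9% of all tested genes. For 112 of the 231 lower genes all Late shams lay above all Early shams, against 2314 of all 14537 tested genes. For 141 of the 428 higher genes all Late shams lay below all Early shams, against 2029 of all tested genes. The median change from Early to Late IZ was 1.80 for the higher genes and -1.16 for the lower ones, whereas between the sham groups it was -0.53 and 0.30. Both changes are parts of the contrast that picked the genes and are given as a description. When tested on their own, the Old sham groups differed in 4 genes (0.0275%), with 1399 at an unadjusted p under 0.05, and the Old IZ groups in 2276 (15.7%).

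The fibrillar and related collagens, which form the tensile fibres of scar, rose further by 1 week in most members. Of 15 tested, 9 were higher Late and 0 lower, with a median difference of 2.29. Their median response was 1.45 Early and 3.68 Late. COL1A1, the main chain of type I collagen (chromosome 12, 26379000 to 26397284 in the deposited annotation, whose build is not named), was counted at 196, 170 and 276 CPM in Old Early Sham and at 1081, 865 and 989 CPM in Old Early IZ. In Old Late Sham it was at 282, 196 and 203 CPM and in Old Late IZ at 5608, 4790 and 5852 CPM. The sham groups overlapped, the Early IZ libraries were already above them, and the Late IZ libraries were higher again. The COL1A1 difference was 2.38 ± 0.51 (adjusted p = 0.00671). COL1A2 and COL3A1, which encode the partner chain of type I and the chain of type III collagen, differed by 2.48 ± 0.47 and 2.38 ± 0.52. In bulk tissue, fewer cells of a type and less RNA per cell cannot be told apart, and the same holds for more of either.

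COL11A1, a minor fibril collagen that sets fibril diameter (chromosome 4, 115638098 to 115840706), was nearly silent in all but the Late IZ. It was at 0.479, 0.520 and 0.497 CPM in Old Early Sham and at 0.289, 0.594 and 0.695 CPM in Old Early IZ. Old Late Sham gave 0.688, 0.344 and 0.376 CPM, against 85.1, 129 and 72.3 CPM in Old Late IZ. Only the 3 Late IZ libraries stood apart, with a difference of 7.54 ± 1.03 (adjusted p = 0.000108). COL9A3, a chain of a cartilage collagen, followed it with 6.73 ± 0.96, and COL24A1, another minor fibril collagen, with 5.70 ± 0.88. COL8A1, a short-chain collagen of vessel wall and scar, stood at 49.0 to 62.0 CPM in Early IZ and 200 to 314 CPM in Late IZ, with a difference of 3.17 ± 0.56. COL5A1, which starts the assembly of type I fibrils and was picked after its values were seen, was above sham by 2.50 Early and 3.11 Late and did not pass the test, at 0.61 ± 0.53.

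Of 24 enzymes and chaperones that fold and crosslink collagen, 6 were higher Late and 0 lower, with a median difference of 0.79. Among the 6 were LOXL1 and LOX, which crosslink elastin and collagen, at 2.72 ± 0.43 and 2.45 ± 0.61, the prolyl hydroxylase P4HA3 at 2.83 ± 0.60 and ADAMTS2, which trims procollagen, at 2.30 ± 0.35. The LOX call was lost without Old Early Sham replicate 3 (2.03, adjusted p = 0.0899). ADAMTS2 was at 21.9 to 27.4 CPM in Early IZ, close to the 15.7 to 19.6 CPM of its shams, and at 94.2 to 116 CPM in Late IZ. The remaining called members were LOXL3 and P3H3, picked after their values were seen, at 2.09 ± 0.39 and 1.95 ± 0.50. In the separate comparisons with sham, 19 of the 24 were higher Early and 23 Late.

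Matricellular and provisional matrix genes, whose products sit between cells and fibres and steer repair, counted 14 higher and 0 lower of 31, with a median of 2.09. THBS4, a thrombospondin of tendon and stressed heart, was at 34.8, 21.5 and 30.9 CPM in Early Sham and at 99.3, 144 and 104 CPM in Early IZ. Late Sham gave 34.6, 29.1 and 29.2 CPM, and Late IZ 2667, 1009 and 974 CPM. All Early IZ libraries were above all shams, and all Late IZ libraries far above them. The difference was 3.65 ± 0.57 (adjusted p = 0.000317). CILP, a matrix protein first described in cartilage, differed by 4.06 ± 0.64, CTHRC1, made by activated fibroblasts, by 4.44 ± 0.91, and the microfibril gene MFAP2 by 3.27 ± 0.50. Called members outside the naming rule, picked after their values were seen, include THBS2 at 3.23 ± 0.48 and elastin (ELN) at 3.14 ± 0.74, whose call was lost in limma-voom with the animal as a block (3.07, adjusted p = 0.056).

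Several hallmark genes of early repair were not called by edgeR. TNC, a glycoprotein of provisional matrix, rose from 0.937 to 4.17 CPM in Early Sham to 244, 250 and 290 CPM in Early IZ, and was at 434, 269 and 317 CPM in Late IZ against 1.77 to 2.96 CPM in Late Sham. Its response was 6.71 ± 0.75 Early and 7.24 ± 0.77 Late, and the difference was 0.53 ± 0.88 (adjusted p = 0.831). For fibronectin (FN1) the difference was 2.21 ± 1.21 and for periostin (POSTN) 2.25 ± 0.79, with adjusted p = 0.356 and 0.106. Both were above sham at both times. FN1 was called in the fit of the 12 libraries alone (2.27, adjusted p = 0.032) and POSTN by DESeq2 (2.27, adjusted p = 0.0499), each in 1 of 10 other settings. The estimates for FN1 and POSTN were close to that of COL1A1 with a larger SE, so these misses do not show equal responses at both times.

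Small proteoglycans, which coat collagen fibrils and space them, stood on both sides of the sham level Early and mostly above it Late. Of 16 tested, 6 were called above sham and 2 below it Early, and 13 above and 1 below Late, with a median response of -0.06 Early and 3.07 Late. In the difference 9 were higher Late and 0 lower. Their summed level was 528 to 699 CPM in Early Sham, 947 to 1500 in Early IZ, 509 to 575 in Late Sham and 3651 to 4738 in Late IZ, so that the sum stood above sham at both times. OGN (osteoglycin; chromosome 3, 42116436 to 42135852) was at 27.2, 25.1 and 32.0 CPM in Early Sham and 20.9, 18.8 and 15.6 CPM in Early IZ. It was at 22.9, 24.4 and 18.4 CPM in Late Sham and 204, 203 and 133 CPM in Late IZ. The Early IZ libraries all lay below their shams and the Late IZ libraries all above theirs, which gave a difference of 3.65 ± 0.48 (adjusted p = 8.90e-05). PRELP, which anchors matrix to basement membrane, differed by 3.54 ± 0.48 from an Early response of -0.12 ± 0.33, and FMOD (fibromodulin), a regulator of collagen crosslinking, by 4.38 ± 0.65. CHAD, a cartilage leucine-rich repeat protein, differed by 5.06 ± 0.87, and the called members DCN and ASPN, picked after seeing their values, by 2.12 ± 0.45 and 3.11 ± 0.41.

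Basement membrane genes, the collagens and laminins on which endothelium and muscle cells rest, gave no call in the difference. Of 16 tested, edgeR, DESeq2 and limma-voom each called 0 in either direction, with 1 higher and 4 lower at an unadjusted p under 0.05, and 11 had a negative difference. Their median difference was -0.47, from a median response of 0.09 Early to -0.25 Late. Early 5 were called above sham and 1 below, and Late 4 above and 4 below.

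**Figure D2:**
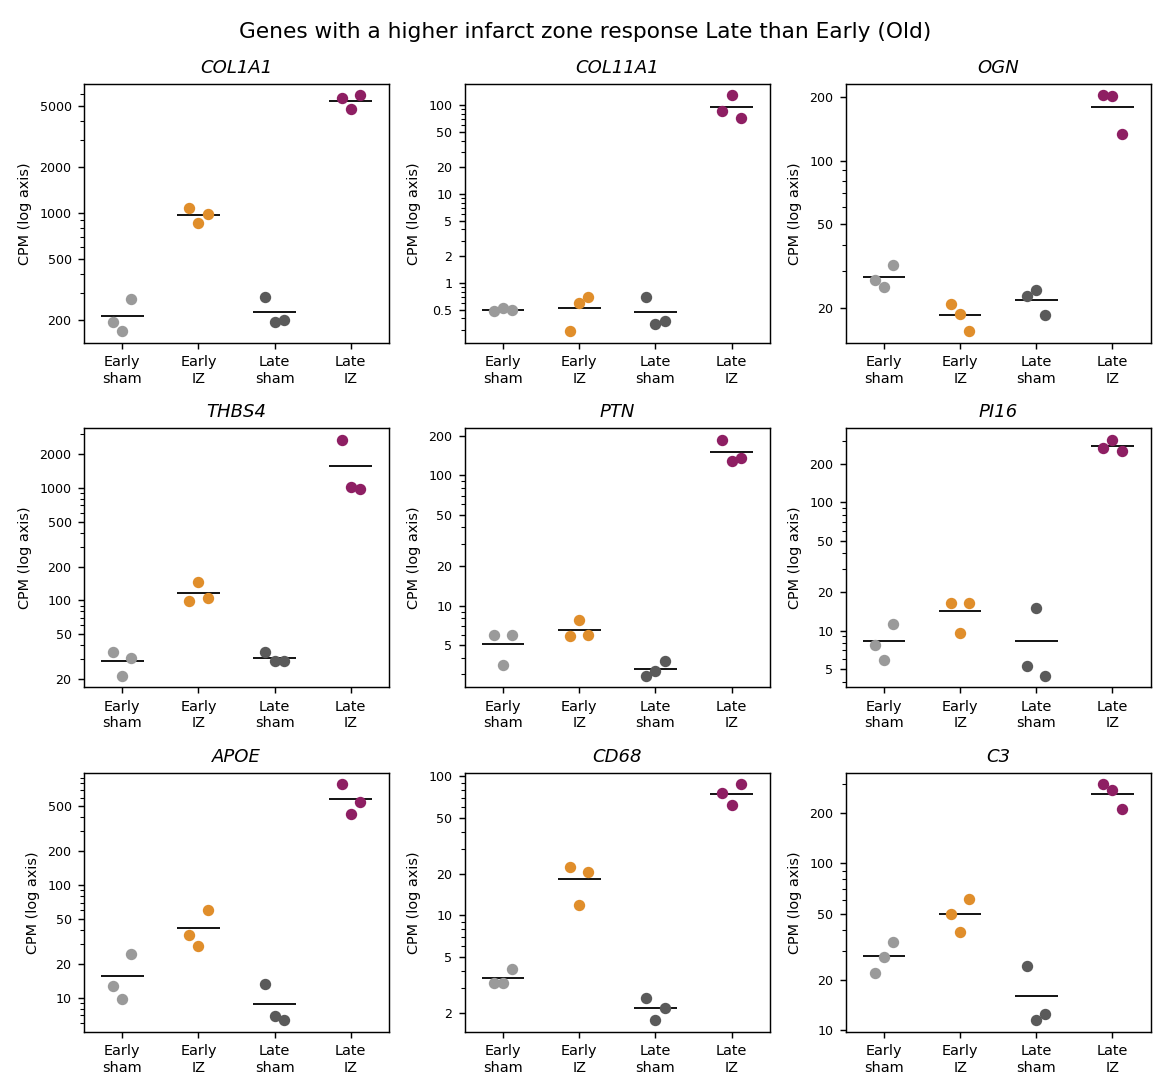
CPM on log axes in the 12 libraries for 9 genes with a higher Late response; points are libraries and bars the mean of 3. In all 9 panels the 3 Late IZ libraries lie above the other 9, as for COL11A1 at 72.3 CPM or more against 0.695 CPM or less.

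Of 19 fibroblast genes tested, 9 were higher Late and 0 lower, with a median of 1.48, and their summed level was 753 to 1062 CPM in Early Sham, 1513 to 2321 in Early IZ, 539 to 652 in Late Sham and 4117 to 4666 in Late IZ. PI16, a marker of resident adventitial fibroblasts, stood at 7.66, 5.88 and 11.3 CPM in Early Sham, 16.5, 9.58 and 16.3 CPM in Early IZ, 5.30, 15.1 and 4.46 CPM in Late Sham and 266, 306 and 251 CPM in Late IZ. Only the Late IZ libraries stood apart, with a difference of 4.29 ± 0.80. FAP, a protease of activated fibroblasts, differed by 2.67 ± 0.39, the mesenchymal transcription factor PRRX1 by 2.69 ± 0.50 and the matrix protein DPT by 2.43 ± 0.46. The matrix protease MMP2 differed by 2.49 ± 0.43 and stood at 792 to 1145 CPM in Late IZ. It belongs to the matrix proteases and their inhibitors, of which 22 were tested, 4 called higher Late and 2 lower. In that list 13 had a positive and 9 a negative difference, with a median of 0.41.

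Of 8 tested genes of the epicardium, the outer cell layer of the heart, 3 were higher Late and 0 lower, while 5 had a positive and 3 a negative difference, 1 of the latter at an unadjusted p under 0.05. Early 4 were called above sham and 1 below it, and Late 5 above. TBX18 differed by 2.53 ± 0.53 and the retinoic acid enzyme ALDH1A2 by 2.70 ± 0.42, and both were called above sham Late and not Early. The third was the fibroblast and epicardial factor TCF21, whose call was kept in 9 of 12 fits that each left out 1 library. Myofibroblast and smooth muscle genes, which contract and stiffen scar, counted 2 higher of 21 with a median of 0.23. One was LMOD1, an actin filament nucleator, called in 6 of the 12 leave-outs. The other, ACTA2 (smooth muscle actin), was at 232 to 509 CPM in Early IZ and 650 to 866 CPM in Late IZ, and differed by 2.00 ± 0.51. Its call was lost, with differences of 1.75 to 1.99 and adjusted p of 0.0532 to 0.0657, when any of these was left out: Old Late Sham replicate 3, either replicate 1 or replicate 3 of Old Early Sham, and replicate 2 of Old Early IZ.

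In the TGF-beta pathway, secreted ligands are held latent in matrix by binding proteins, act through paired receptors and SMAD factors, and drive collagen synthesis. Of 26 tested members 3 were higher Late and 0 lower, with a median of 0.23, and the 3 were a ligand and 2 binding proteins. TGFB1, the best known ligand, was above sham by 1.27 ± 0.23 Early and 1.51 ± 0.23 Late and differed by 0.24 ± 0.31 (adjusted p = 0.77). TGFB3 was at 30.6, 35.5 and 52.9 CPM in Early IZ and at 131, 132 and 122 CPM in Late IZ, with a difference of 1.74 ± 0.43. This call was lost without Old Late Sham replicate 1 or 3 or Old Early Sham replicate 3 (1.51 to 1.64, adjusted p 0.0525 to 0.0605). LTBP2 and LTBP3, latent TGF-beta binding proteins, differed by 3.39 ± 0.55 and 2.70 ± 0.42.

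Of the growth factor and fetal genes, 3 of 23 were higher Late and 1 lower. PTN (pleiotrophin), a heparin-binding growth factor (chromosome 18, 12219744 to 12311922), had the smallest adjusted p of all 14537 genes, 5.74e-05. It was at 5.96, 3.49 and 5.92 CPM in Early Sham, 5.90, 7.80 and 5.95 CPM in Early IZ, 2.92, 3.15 and 3.76 CPM in Late Sham and 187, 130 and 137 CPM in Late IZ. The Early groups overlapped, and the difference was 5.18 ± 0.63. The other higher ones, the related midkine gene MDK and FGF18, kept their calls in 3 and 5 of the 12 leave-outs, and MDK was lost in limma-voom (adjusted p = 0.0666). The lower one was PDGFB, made by endothelium and needed to recruit pericytes, at 40.8, 36.4 and 71.6 CPM in Early IZ and 19.5, 20.2 and 20.2 CPM in Late IZ, with a difference of -1.46 ± 0.31.

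Of 18 macrophage genes tested, 5 were higher Late and 0 lower, with a median difference of 1.68, and 14 were above sham Early and 17 Late. Their summed level was 160 to 251 CPM in Early Sham, 477 to 1193 in Early IZ, 142 to 191 in Late Sham and 1451 to 2130 in Late IZ. CD68, a lysosomal protein of macrophages, was at 3.25, 3.28 and 4.13 CPM in Early Sham and 22.3, 11.8 and 20.6 CPM in Early IZ. In Late Sham it was at 2.55, 1.77 and 2.16 CPM, and in Late IZ at 76.0, 61.8 and 87.6 CPM. Each IZ group stood clear of its shams and the Late one was the higher, with a difference of 2.76 ± 0.66 (adjusted p = 0.0139). The CD68 call was lost in limma-voom with the animal as a block (2.81, adjusted p = 0.0666). The lysosomal protease CTSS differed by 2.41 ± 0.53 and the complement receptor VSIG4, picked after its value was seen, by 2.36 ± 0.55. The others were LYZ and FCGR1A, with calls kept in 11 and 3 of the 12 leave-outs. Both were also lost in the blocked limma-voom fit (5.16 and 2.32, adjusted p = 0.0868 and 0.11), which called 2 of the 18. Without Old Early Sham replicate 3, 3 of the 18 were called.

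Genes of lipid-loaded macrophages counted 4 higher and 0 lower of 18, with 1 called without Old Early Sham replicate 3 and 2 if either replicate 1 of Old Late Sham or replicate 3 of Old Late IZ was left out. They were APOE, ACP5, GPNMB and LGALS3, of which APOE alone was called in limma-voom with the animal as a block (adjusted p of 0.128, 0.119 and 0.139 for the other three). APOE, which carries cholesterol out of cells (chromosome 6, 51372241 to 51375617), was at 12.7, 9.89 and 24.6 CPM in Early Sham and 36.4, 29.0 and 60.1 CPM in Early IZ. Late Sham gave 13.4, 6.98 and 6.38 CPM and Late IZ 784, 425 and 543 CPM, for a difference of 4.62 ± 0.92 (adjusted p = 0.00345). SPP1 (osteopontin), which macrophages secrete in wounds, was at 383 to 518 CPM in Early IZ and 459 to 1938 CPM in Late IZ. Those ranges overlapped, and SPP1 did not pass in edgeR (2.89 ± 1.18, adjusted p = 0.176), though it did in a fit of the 12 libraries alone (2.95, adjusted p = 0.0402). Complement genes counted 4 higher and 0 lower of 12, with a median Early response of 0.46 and a Late one of 2.75, with 1 called without Old Early Sham replicate 3 and 2 without Old Late IZ replicate 3. They were C3, C2, C4A and C1QB. The blocked limma-voom fit called 2 of the 12 and lost C2 and C4A (adjusted p = 0.053 and 0.0577). C3, the central complement protein, differed by 3.18 ± 0.71 and was at 38.6 to 60.9 CPM in Early IZ and 213 to 297 CPM in Late IZ.

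Neutrophils and the cytokines that draw them mark the first phase of repair, and few of their genes passed the test of the difference. Of 16 cytokine and chemokine genes 14 were above sham Early and 12 Late, and 11 had a negative and 5 a positive difference. The median difference was -1.14, and ranged from -1.56 to 0.02 when 1 library was left out. Their summed level was 53.1 to 139 CPM in Early Sham, 280 to 761 in Early IZ, 57.3 to 61.5 in Late Sham and 175 to 235 in Late IZ. In the difference 1 gene was called lower Late. It was CXCL2, a neutrophil chemokine, at 46.4, 16.0 and 7.03 CPM in Early IZ and 1.94, 1.77 and 2.56 CPM in Late IZ, with a difference of -2.94 ± 0.73. The Early values spread widely, and the call was lost without Old Early IZ replicate 1 (-1.94, adjusted p = 0.0908), without the third Old Late Sham library (-2.65, adjusted p = 0.0603), with limma-voom (-2.55, adjusted p = 0.0853) and in a fit of the 12 libraries alone (-2.90, adjusted p = 0.0557). CCL2, which draws monocytes, was at 391, 130 and 152 CPM in Early IZ and 44.0, 31.2 and 48.0 CPM in Late IZ, yet its difference of -1.84 ± 0.62 did not pass (adjusted p = 0.0882). TIMP1, an inhibitor of matrix proteases that is induced by acute inflammation, was at 4142, 544 and 880 CPM in Early IZ and 193, 84.7 and 208 CPM in Late IZ, and did not pass either (-2.28 ± 0.83, adjusted p = 0.121). The 11 neutrophil genes tested summed to 56.8 to 438 CPM in Early IZ and 173 to 406 CPM in Late IZ, against 2.07 to 4.41 CPM over both sham groups, and ARG1, an arginine-degrading enzyme, was called lower Late, a call kept in 6 of the 12 leave-outs and lost in limma-voom (adjusted p = 0.258). The IZ ranges of this sum overlapped, and a sum mostly follows its most abundant members. Taken gene by gene, 10 of the 11 were above sham Early and 8 Late, and 9 had a negative and 2 a positive difference. Their median difference was -1.58, and ranged from -2.47 to 0.37 when 1 library was left out. With all libraries it was -1.10 over the 8 members counted in each of the 4 groups, as 3 had no count in at least 1 group. Old Early IZ replicate 1 was the highest of its group for CXCL2, CCL2 and TIMP1.

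Interferon-stimulated genes form the arm of antiviral and nucleic acid sensing responses. All 20 tested had a positive difference, with a median of 2.09, and 7 were called higher Late and 0 lower. The Early median was -1.44, with 12 of 20 below sham, and the Late one 0.49, with 3 above. Their summed level was 252 to 1812 CPM in Early Sham, 311 to 423 in Early IZ, 351 to 734 in Late Sham and 635 to 844 in Late IZ. USP18, which damps interferon signalling, was at 10.3, 3.75 and 25.6 CPM in Early Sham, 2.06, 3.60 and 4.37 CPM in Early IZ, 13.5, 6.0 and 5.30 CPM in Late Sham and 12.5, 7.90 and 14.5 CPM in Late IZ. The shams varied more than the IZ libraries, with Old Early Sham replicate 3 the highest of all. The USP18 difference of 2.48 ± 0.62 lost its call without Old Early Sham replicate 3 (1.55, adjusted p = 0.166). The call also went when replicate 2 or 3 of Old Late Sham or replicate 1 of Old Early IZ was dropped (2.23 to 2.29), and in a fit of the 12 libraries alone (2.52, adjusted p = 0.0833). For the list as a whole, edgeR called 0 members without replicate 3 of Old Early Sham, where the median was 0.88, and 0 without the third Old Late Sham library, where it was 1.76. It called 1 if replicate 2 of Old Late Sham or replicate 1 of Old Early IZ was dropped, and 2 if replicate 1 or 3 of Old Late IZ or replicate 2 of Old Early IZ was. Dropping replicate 3 of Old Early IZ left 4, and dropping replicate 2 of Old Early Sham gave 12. With all libraries 14 of the 20 had an unadjusted p under 0.05, DESeq2 called 9 and limma-voom 2.

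**Figure D3:**
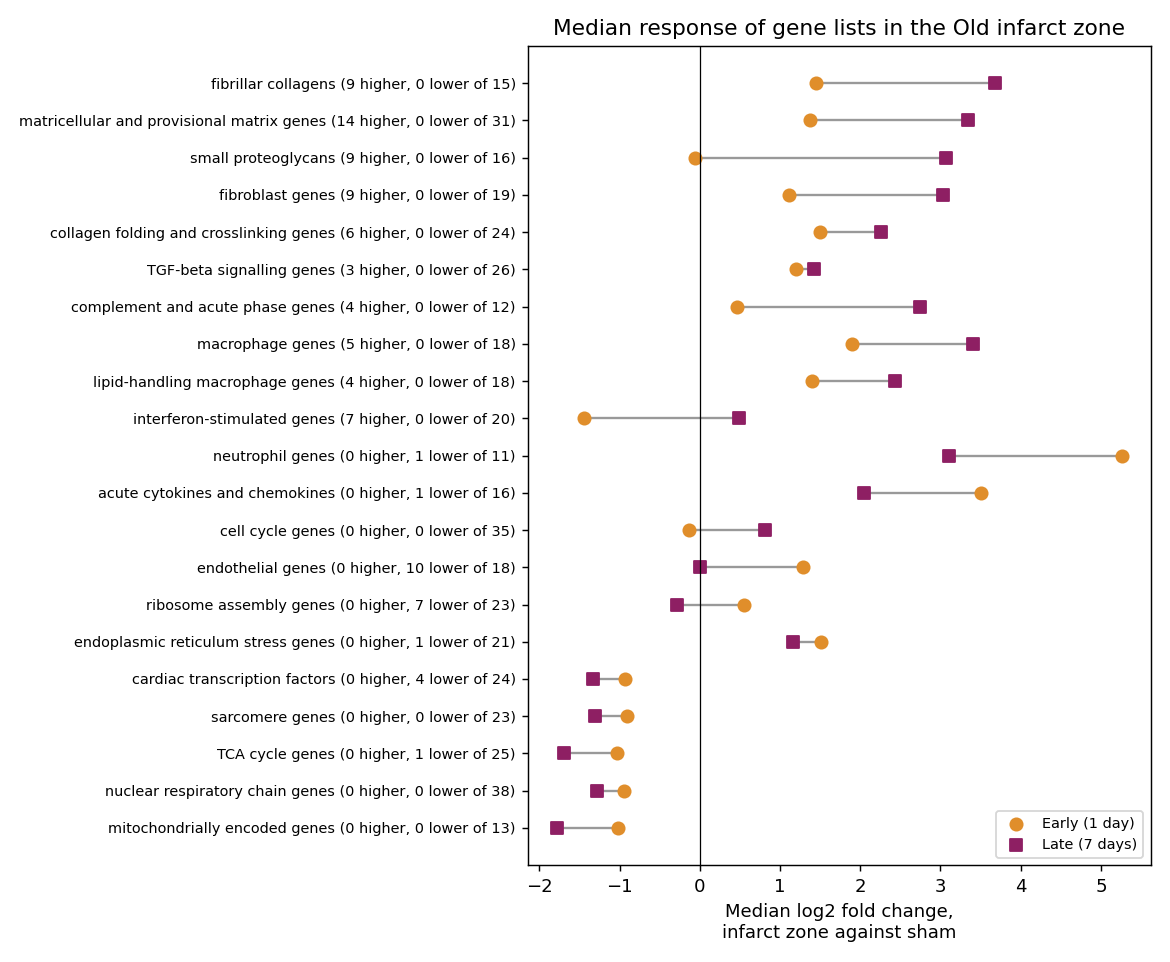
Median log2 fold change between infarct zone and sham for 21 gene lists, over members counted in each of the 4 groups, at 1 day (circles) and 7 days (squares), with called members in brackets. Fibrillar collagens, matricellular genes and small proteoglycans (from -0.06 to 3.07) move to the right by 7 days, while endothelial genes move left from 1.29 to 0.01.

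Endothelial genes had lower Late than Early responses. All 18 tested had a negative difference, with a median of -1.45, and 10 were called lower Late and 0 higher. Their median response was 1.29 Early and 0.01 Late: 14 stood above sham Early, and 3 above and 5 below Late. PECAM1, the junction protein CD31 (chromosome 12, 14636641 to 14723295), was at 120, 131 and 120 CPM in Early Sham, 298, 299 and 577 CPM in Early IZ, 113, 107 and 98.4 CPM in Late Sham and 114, 144 and 148 CPM in Late IZ. The Early IZ libraries were well above all others, and the Late IZ libraries only just above their shams. The PECAM1 difference was -1.31 ± 0.30 (adjusted p = 0.0112), and the call was lost without Old Early IZ replicate 3, the highest library (-0.92, adjusted p = 0.0517).

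FLT1, a VEGF receptor (chromosome 11, 5619970 to 5794957), crossed the sham level. It was at 23.7, 30.8 and 25.2 CPM in Early Sham, 40.8, 44.9 and 56.9 CPM in Early IZ, 48.8, 34.4 and 38.8 CPM in Late Sham and 14.9, 19.1 and 15.6 CPM in Late IZ. The IZ libraries lay above all their shams Early and below all of them Late, and the Late shams lay above the Early shams. The difference was -2.14 ± 0.38 (adjusted p = 0.000978). ROBO4, which stabilises the endothelial barrier, differed by -1.71 ± 0.39, and the junction gene ESAM, picked after its value was seen, by -1.50 ± 0.31. VEGFA, the ligand of FLT1, had a response of -1.06 ± 0.42 Early, not called, and -2.28 ± 0.44 Late, and its difference of -1.22 ± 0.60 did not pass. Leaving out 1 library at a time gave 3 to 11 called members, lowest without Old Early IZ replicate 3, with 4 when replicate 3 of Old Early Sham or replicate 1 of Old Late IZ was dropped, and 6 when replicate 3 of Old Late IZ was.

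GPR4, a proton-sensing receptor of endothelium, was at 24.0, 11.2 and 35.3 CPM in Early IZ and between 3.95 and 5.80 CPM in the other 9 libraries, with a difference of -2.42 ± 0.40. YBX2, a cold-shock protein known for holding mRNA in germ cells, gave the lowest adjusted p of the lower genes named here, at 36.3, 22.1 and 17.4 CPM in Early IZ and 2.04 to 4.62 CPM elsewhere (-3.33 ± 0.49, adjusted p = 0.000217). In both genes only the Early IZ libraries stood apart. ADAMTS9, a protease of versican, differed by -1.82 ± 0.30 and crossed from above to below sham, from 36.3 to 44.5 CPM in Early IZ to 14.6 to 18.1 CPM in Late IZ.

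Genes for ribosome assembly, a process that runs high in growing and stimulated cells, counted 7 lower and 0 higher of 23, and 22 of the 23 had a negative difference, with a median of -0.91. RRP12, needed for export of pre-ribosomes, was at 24.9, 26.5 and 24.4 CPM in Early Sham, 49.2, 34.4 and 38.8 CPM in Early IZ, 36.6, 26.4 and 30.6 CPM in Late Sham and 18.7, 15.7 and 17.1 CPM in Late IZ. Here too the IZ libraries lay above their own shams Early and below their own shams Late (-1.55 ± 0.32, adjusted p = 0.00431). Between 2 and 5 members were called when 1 library was left out, with 2 without Old Late IZ replicate 3. MYC, a driver of ribosome assembly, was at 27.4 to 34.4 CPM in Early IZ and 10.4 to 12.0 CPM in Late IZ, and its difference of -1.59 ± 0.48 missed the threshold in edgeR (adjusted p = 0.0541). It passed with DESeq2 (-1.55, adjusted p = 0.0323) and in a fit of the 12 libraries alone (-1.54, adjusted p = 0.0028), and in none of the other 8 settings tried or the 12 leave-outs. The chaperone HSP90AB1 differed by -0.92 ± 0.23, a call lost without Old Late IZ replicate 3 (-0.80, adjusted p = 0.0704).

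**Figure D4:**
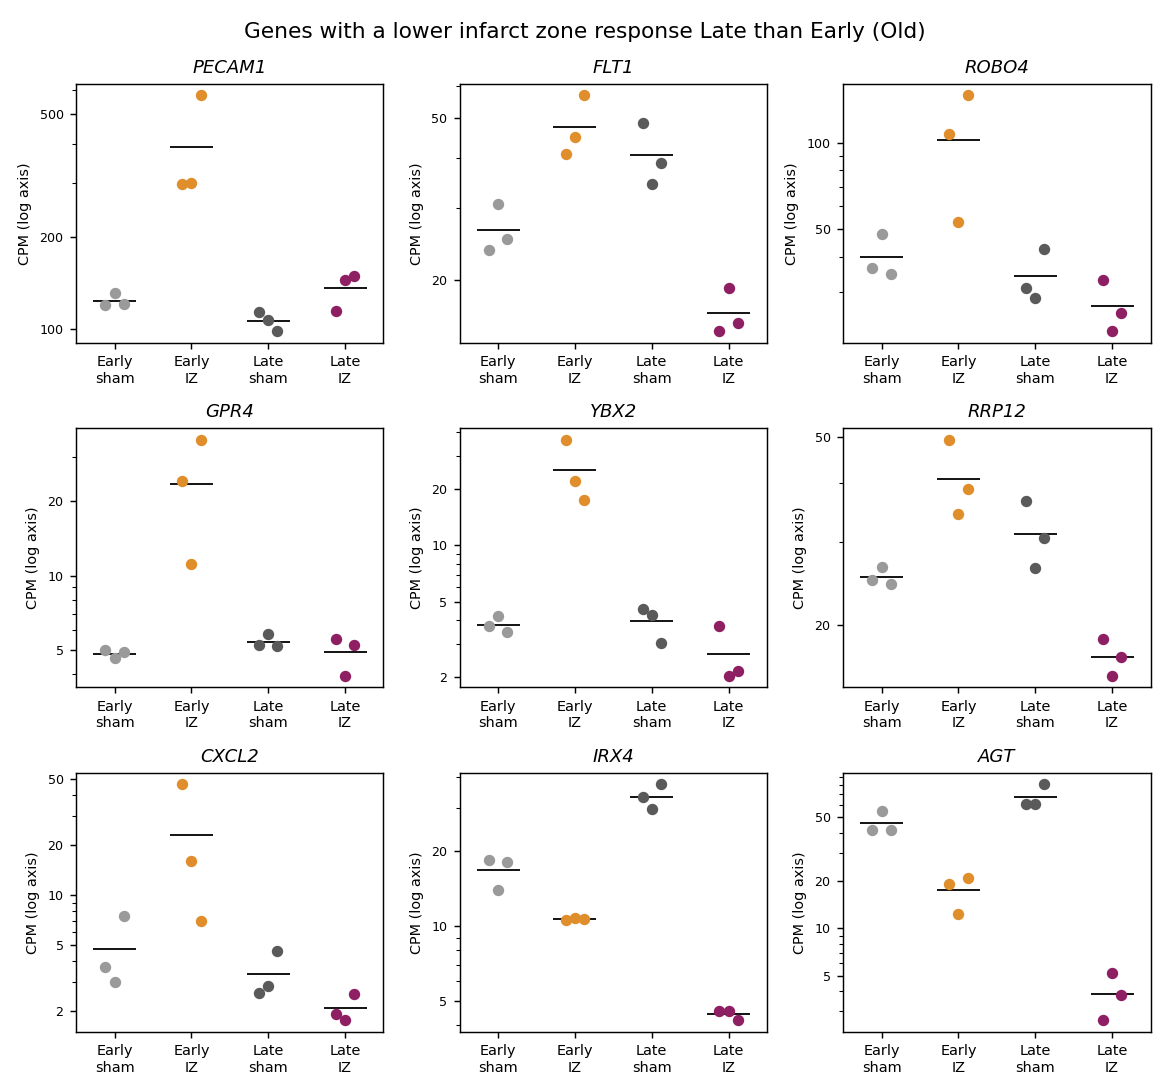
CPM on log axes in the 12 libraries for 9 genes with a lower Late response; points are libraries and bars the mean of 3. GPR4 and YBX2 are high only in the 3 Early IZ libraries, while IRX4 and AGT are lowest in Late IZ, AGT at 2.64 to 5.19 CPM.

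Genes of heart muscle were mostly below sham at both times, and few were called in the difference. Of 24 cardiac transcription factors 14 were below sham Early and 22 Late, and 4 were called lower Late and 0 higher (median -0.62), with 4 or 5 called without Old Late IZ replicate 2 or Old Early Sham replicate 2 and 1 to 3 called in each of the other 10 leave-outs. They were IRX4, HEY2, MEF2D and ESRRA, with calls kept in 12, 6, 5 and 1 of the 12 leave-outs. HEY2 and ESRRA were also lost in the blocked limma-voom fit, which called 2 of the 24. IRX4, which specifies ventricular muscle, was at 18.5, 14.1 and 18.1 CPM in Early Sham and 10.6, 10.8 and 10.7 CPM in Early IZ. In Late Sham it was at 33.0, 29.5 and 37.2 CPM and in Late IZ at 4.57, 4.55 and 4.19 CPM. The Late shams lay above all Early libraries and the Late IZ below them, and the difference was -2.25 ± 0.52 (adjusted p = 0.012). KCNH2, a potassium channel that ends the action potential, differed by -1.62 ± 0.33. It was the 1 called gene of 18 cardiac ion channel genes tested, of which 5 had a positive and 13 a negative difference. Their median difference was -0.21, and ranged from -0.66 to 0.11 when 1 library was left out.

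AGT, the angiotensin precursor, was below sham at both times and further below it Late. It was at 41.6, 54.6 and 41.8 CPM in Early Sham, 18.9, 12.3 and 20.8 CPM in Early IZ, 60.7, 60.5 and 80.8 CPM in Late Sham and 2.64, 5.19 and 3.79 CPM in Late IZ. The difference was -2.71 ± 0.58 (adjusted p = 0.00606). BTNL9, an immunoglobulin-family gene, was at 26.7 to 57.3 CPM in Early IZ and 4.57 to 5.59 CPM in Late IZ (-2.88 ± 0.60). HK1, the hexokinase that is bound to mitochondria, had an Early response of -0.08 ± 0.18 and was at 204 to 278 CPM in Late IZ against 510 to 623 CPM in its shams (-1.15 ± 0.26).

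By contrast, 0 of 23 sarcomere genes, 0 of 38 nuclear respiratory chain genes and 0 of 13 mitochondrially encoded genes were called by edgeR in either direction. At an unadjusted p under 0.05 the sarcomere list gave 1 higher and 7 lower, the nuclear respiratory list 0 and 1, and the mitochondrially encoded list 0 and 0. DESeq2 called 3 sarcomere genes lower and 0 of the other lists, and limma-voom called 0 in all 3. Medians were -0.34, -0.40 and -0.77. The difference was negative for 19 of 23, 35 of 38 and 13 of 13 members, against 8119 of all 14537 tested genes. All 25 tested genes of the TCA (citric acid) cycle were negative too, with a median of -0.66. By edgeR 1 of them was called lower Late, and 12 were lower at an unadjusted p under 0.05. Of 20 glycolysis genes 17 were negative, with a median of -0.58 and 1 called lower Late. Many sarcomere and nuclear respiratory genes were low already at 1 day: 13 and 25 were called below sham Early, and 18 and 33 Late. Of the mitochondrially encoded genes, 3 of 13 were called below sham Early and 13 Late, although 0 were called in the difference. MYH6 was at 29120 to 32690 CPM in Early Sham, 13300 to 22120 in Early IZ, 38590 to 44330 in Late Sham and 9553 to 12370 in Late IZ, with a difference of -0.99 ± 0.34 (adjusted p = 0.0893), which passed with DESeq2 (-0.96, adjusted p = 0.00858). The calcium pump ATP2A2 differed by -1.15 ± 0.66 and CPT1B, which admits fatty acids to mitochondria, by -0.87 ± 0.40, and neither passed.

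Cell cycle genes were also not called, 0 of 35 in either direction by edgeR, 0 by DESeq2 and 0 by limma-voom, with 4 higher at an unadjusted p under 0.05. Their median difference was 0.94, from -0.13 Early to 0.82 Late, and 29 of 35 were positive. CDK1, which drives entry into mitosis, was at 10.8, 14.1 and 9.58 CPM in Early IZ and 29.5, 12.7 and 23.2 CPM in Late IZ, against shams from 4.93 to 20.6 CPM. The groups overlapped, and the difference was 1.32 ± 0.65 (adjusted p = 0.295). Old Late Sham replicate 2 held the 20.6 CPM, and 3 members were called higher without it.

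The same contrast in the pigs infarcted at 2 days of age (Young), which shares no library with this one, was compared gene by gene. Young hearts were also taken 1 day or 7 days after surgery. All Young Early IZ and sham libraries were prepared in batch 1, and the Young Late ones in batches 1 and 2. Time and batch were thus mixed in another way than in Old, and the ages differ in batch and age at harvest too. The Young contrast called 1792 genes (12.3%), 6.12% of all tested as higher and 6.2% as lower. Of the 428 genes higher Late in Old, 402 had a positive difference in Young and 192 were also called there, with a median of 1.54 against 2.36 in Old. Of the 231 lower ones, 201 were negative and 58 called, with a median of -0.62 against -1.44. Over all tested genes 8923 of 14537 had the same sign. The genes were picked in Old, so the 2 medians are not comparable in size. The test of Old minus Young itself called 1 gene (0.00688%) by edgeR (1982 at an unadjusted p under 0.05) and 72 by DESeq2. Its median SE was 0.63, so the few calls do not show equal responses at both ages. Medians of some lists had opposite signs, with sarcomere genes at -0.34 in Old and 1.09 in Young and nuclear respiratory chain genes at -0.40 and 1.12. Others had the same sign, such as matricellular genes (2.09 and 1.47) and ribosome assembly genes (-0.91 and -0.59). For COL11A1 the Young difference was 5.07 ± 1.09, for PTN 3.13 ± 0.64, for APOE 5.23 ± 0.93 and for FLT1 -1.52 ± 0.38, all called in Young. For IRX4 and KCNH2 it was 0.51 ± 0.51 and 0.30 ± 0.32, neither called.

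The single gene was ACTA1, skeletal alpha-actin, which the fetal heart expresses, with Old minus Young at -4.27 (adjusted p = 0.0109). It was not called in Old itself (-1.20 ± 0.48, adjusted p = 0.167), where Early IZ was at 6935, 7768 and 4933 CPM and Late IZ at 5161, 6294 and 3904 CPM, against 3781, 6588 and 5327 CPM in Early and 8008, 8612 and 11490 CPM in Late shams. In Young it was at 6064, 5766 and 2357 CPM in Early IZ and 12380, 9465 and 9140 CPM in Late IZ, while the Young shams went from 13990, 15680 and 5382 CPM Early to 3475, 2347 and 3245 CPM Late. In Young the IZ and the sham levels moved in opposite directions, giving 3.08 ± 0.49. The Old minus Young call was lost without Old Late IZ replicate 1 or 3, where 0 genes passed. Young libraries were not left out in turn.

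**Figure D5:**
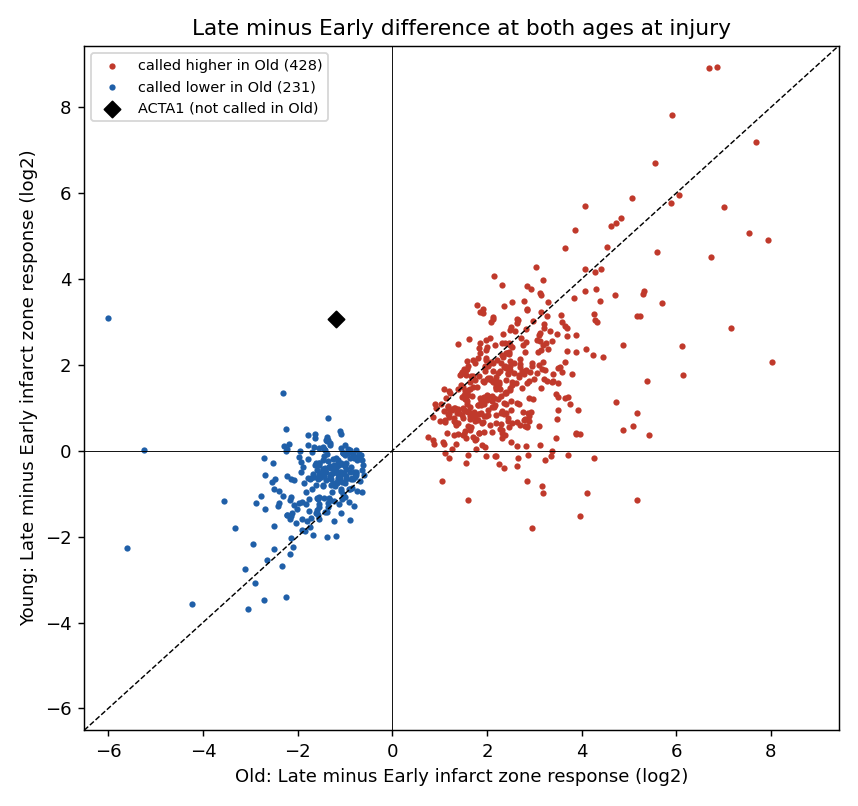
Late minus Early infarct zone response in pigs injured at 14 days (horizontal axis, log2) and at 2 days (vertical axis, log2) for the 659 genes called in Old, with ACTA1 as a diamond. Most of the 428 higher genes lie above 0 on the vertical axis, 402 of them, and ACTA1 lies at -1.20 and 3.08.

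The border zone (BZ) of the same pigs gives a further reading, with the shams shared, so that values are given side by side and not as independent. The Old BZ contrast called 183 genes (1.26%), 126 higher (0.867%) and 57 lower (0.392%). COL11A1 was at 0.224, 0.263 and 0.622 CPM in Old Early BZ and 48.9, 26.0 and 51.0 CPM in Old Late BZ, with a difference of 6.85 ± 1.03 in BZ and 7.54 ± 1.03 in IZ. PTN differed by 4.10 ± 0.62 in BZ and 5.18 ± 0.63 in IZ, and FLT1 by -2.08 ± 0.38 and -2.14 ± 0.38. YBX2, with -1.42 ± 0.48 in BZ and -3.33 ± 0.49 in IZ, and KCNH2, with -0.68 ± 0.32 and -1.62 ± 0.33, were not called in BZ. The test that sets IZ directly against BZ of the same pigs, with no sham library in it, called 0 of 14386 genes by edgeR (1178 at an unadjusted p under 0.05, smallest adjusted p = 0.285). One Old Late BZ library carries 2 labels that name different pigs, and taking the other label also gave 0.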

How the data were processed

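The data are the authors' deposited raw counts per gene (1 table, 25880 genes, 36 libraries). Stranded poly(A) libraries were read as paired ends, per the labels' protocols, and bcl2fastq 2.19.0.316, Trimmomatic 0.36, STAR and featureCounts of Subread 1.5.1 are named in the submitters' processing notes. Genome build, annotation and strand setting are not given in the sources used here, so overlapping and near-identical genes such as C4A are uncertain. Genes were filtered with filterByExpr (minimum count 10, minimum total 15), scaled by TMM and fitted in edgeR 4.0.16 (robust quasi-likelihood F-test, R 4.3.3) with 12 group means over 36 libraries and 24 residual degrees of freedom. The 36 libraries came from 24 pigs, and this main fit treated the IZ and BZ libraries of a pig as independent. Benjamini-Hochberg adjustment ran over all 14537 tested genes. SEs are the absolute log2 difference divided by the square root of F. IZ against BZ was fitted with the animal as a block, since both come from the same pigs. DESeq2 1.42.0 and limma 3.58.1 served as alternatives. The scripts were tested on simulated data. Named genes were the 15 largest called in each direction (mean log2 CPM of 1 or more), the 4 largest called of each of 47 lists (0 or more) and a panel of 38. The members, lists and panel were chosen with earlier results of these data known. Of 988 distinct list members, 853 were in the table and 815 were tested.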

Additional observations from a re-analysis of the deposited data

Results flagged for a closer look

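ACTA1, which encodes skeletal alpha-actin, had a Late minus Early infarct zone response that differed between pigs injured at 14 and at 2 days of age. The Old minus Young difference was -4.27 on the log2 scale (adjusted p = 0.0109, edgeR quasi-likelihood test), from -1.20 in Old and 3.08 in Young. The call was lost without Old Late IZ replicate 1 or 3. No Young library was left out in turn, so its dependence on single Young libraries was not tested.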

How the results depend on the processing

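Of the 659 genes called, 218 (33.1%) kept their call in each of the 12 fits that left out 1 library, 160 of the higher and 58 of the lower ones. These fits called 270 to 644 genes, 178 to 440 higher and 92 to 206 lower. DESeq2 called 955 genes, 595 higher and 360 lower, against 428 higher and 231 lower in edgeR. A fit of the 12 libraries alone called 879, 591 higher and 288 lower. Leaving out 1 library gave 3258 to 5413 called genes for Early IZ against sham (4988 with all), 1314 to 2233 for IZ Late against Early (2276), 0 to 11 for sham Late against Early (4) and 0 to 1 for Old minus Young (1). A minimum absolute log2 difference of 1 gave 3121 for Early IZ against sham, and preparation batch as a term gave 559 for IZ Late against Early. Sham Late against Early gave 102 with DESeq2, 0 with the batch term and 0 with RNA integrity as a covariate, and Old minus Young gave 72 with DESeq2. The cause of these shifts was not tested. Batch 3 held Old Late libraries and no others, so the batch term could not adjust Old Late against Old Early. The counts with that term therefore do not show how much of either change is due to batch. The share of calls that were higher was 64.9%, and 77.6% without Old Late IZ replicate 3. TNC, not called, ranged from -0.12, without Old Early Sham replicate 3, to 0.90 when 1 library was left out. A limma-voom fit that treated each pig as a random effect (replicate block) called 524 genes, 478 of them among the 659 (consensus correlation 0.378), and IZ against BZ gave 0 with and without the replicate block. edgeR's earlier quasi-likelihood method, added after seeing the data, called 583. The planned search of promoter motifs was not run. With 3 libraries per group and a median SE of 0.44, small differences were not detectable. In simulated counts put through the same fit, a log2 difference of 1 was called in 2 of 50 genes. A difference of 1.5 was called in 20 of 50, and 1 of size 2 in 36 of 50. The simulation gave 109 calls in all against the 659 here, so its rates need not hold for these data.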

Other observations

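Several called genes stood outside the groups described. MYL1, a myosin light chain of fast skeletal muscle, was at 5.85 to 27.7 CPM in Late IZ and at 1.01 CPM or less in the other 9 libraries, with a Late minus Early difference of 5.31 ± 1.07 (adjusted p = 0.00398, edgeR). In Old Late BZ it was at 9.04, 15.6 and 36.2 CPM. MYL1 was the 1 called gene of 9 skeletal muscle genes tested, of which 4 had a positive and 5 a negative difference. The median difference of the 9 was -0.25. KIT, a stem cell factor receptor found on mast cells and other cells, was at 45.0, 39.0 and 104 CPM in Early IZ and 10.8 to 16.3 CPM in Late IZ, against 7.42 to 16.0 CPM in the shams (-2.50 ± 0.61). Its call was lost without Old Early Sham replicate 3 (-2.30, adjusted p = 0.0631) or Old Early IZ replicate 3 (-1.93, adjusted p = 0.0666). KIT was the 1 called gene of 5 mast cell genes tested, of which 2 had a positive and 3 a negative difference, with 1 higher and 1 lower at an unadjusted p under 0.05. The 5 summed to 17.8 to 21.9 CPM in Early Sham, 108 to 232 in Early IZ, 18.7 to 22.4 in Late Sham and 65.6 to 141 in Late IZ, so the IZ ranges overlapped. HES2, a transcription repressor of the hairy family, was at 7.98 to 26.0 CPM in Early IZ and 2.13 to 3.84 CPM elsewhere (-2.77 ± 0.61). ADRA2C, an adrenergic receptor, was at 1.27 to 1.48 CPM in Late IZ and 5.16 to 9.77 CPM elsewhere (-2.49 ± 0.54).

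Red blood cell genes, 6 tested, summed to 214 to 530 CPM in Early Sham, 313 to 1079 in Early IZ, 79.9 to 152 in Late Sham and 42.9 to 70.4 in Late IZ. By edgeR 0 of the 6 were called (2 lower at an unadjusted p under 0.05), and 0 by DESeq2 or limma-voom.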
